A study of Mus musculus with 2 samples.

Results

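Proprioceptors, the large sensory neurons that report muscle length and tension, were picked from a fixed single-cell RNA profile of mouse cervical dorsal root ganglia, the ganglia that hold the cell bodies of body sensory neurons. A barcode entered when it held at least 5000 unique molecular identifiers (UMIs), at least 10 Pvalb UMIs per 10000 and at least 1 Runx3 UMI. It also had to stay under 3 per 10000 for Mrgprd and Trpm8, and under 5 per 10000 for Th, Mrgprb4, Tac1 and the sum of Nppb and Il31ra, which mark other sensory neurons. The rule found 507 of 15710 barcodes in one library and 311 of 12067 in the other, or 818 of 27777 in all. The first library, titled Penk ctrl, is of genotype Foxp3 CreER; Penk fl/WT and the second, titled Penk KO, of genotype Foxp3 CreER; Penk fl/fl. Both groups carried the inducible Cre that Foxp3 drives in regulatory T cells and were given tamoxifen, and the control still had 1 floxed Penk allele. Both groups had received imiquimod, a skin-inflaming Toll-like receptor agonist, for 3 days, and the tissue of spinal levels C2 to C7 was fixed in 4% paraformaldehyde. Each group was 1 library of pooled tissue, and the age, sex and number of mice were not given in the sources used here. With 1 library per group there is no replicate check. No p-value is given below, and every interval is a 95% interval that covers counting error only. Because Pvalb, Runx3 and the exclusion genes chose the cells, their values and all contrasts between the chosen cells and other cells are descriptions.

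Proprioceptors send a peripheral branch to muscle spindles or Golgi tendon organs and a central branch to the spinal cord, where spindle afferents contact motor neurons directly. They depend during development on neurotrophin 3 acting on the receptor encoded by Ntrk3, and the transcription factors encoded by Runx3 and Etv1 take part in their specification. Their axons are among the thickest and fastest in the nerve, and they fire sustained high-rate trains, for which parvalbumin, the calcium buffer encoded by Pvalb, and fast potassium channels are known in other fast-firing neurons.

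The 250 bases before the start of 3 genes are shown first, since Pvalb and Runx3 chose the cells and Spp1 was among the 20 genes most enriched in them. The sequences are from RefSeq on build GRCm38.p6, each written 5′ to 3′ on the gene's own strand, while the counts were made on GRCm39. Capitals mark matches on either strand to TGTGGT, the core that RUNX factors bind, to CCGGAAG, which ETS factors such as the Etv1 product can bind, and to AAGGTCA, the half-site of estrogen-related receptors. The windows lie at chr15:78206401-78206650 on the minus strand for Pvalb, chr4:135120395-135120644 on the plus strand for Runx3 and chr5:104434861-104435110 on the plus strand for Spp1.
Pvalb: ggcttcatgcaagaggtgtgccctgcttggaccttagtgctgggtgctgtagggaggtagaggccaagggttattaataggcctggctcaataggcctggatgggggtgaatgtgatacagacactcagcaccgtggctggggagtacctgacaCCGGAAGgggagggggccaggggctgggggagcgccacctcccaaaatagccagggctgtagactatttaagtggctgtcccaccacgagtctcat
Runx3: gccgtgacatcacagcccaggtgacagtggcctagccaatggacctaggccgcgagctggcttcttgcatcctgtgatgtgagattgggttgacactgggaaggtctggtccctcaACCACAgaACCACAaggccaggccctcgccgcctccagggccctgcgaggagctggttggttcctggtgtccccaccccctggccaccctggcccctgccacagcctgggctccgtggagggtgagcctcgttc
Spp1: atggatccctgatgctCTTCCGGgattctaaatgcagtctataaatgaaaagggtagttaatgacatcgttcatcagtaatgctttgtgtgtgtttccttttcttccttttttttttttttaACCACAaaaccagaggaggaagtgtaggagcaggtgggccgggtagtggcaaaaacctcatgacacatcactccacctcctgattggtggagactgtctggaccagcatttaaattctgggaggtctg
The Pvalb window held the ETS string, the Runx3 window held the RUNX string more than once, and the Spp1 window held both. Of the 20 genes most enriched in the proprioceptors, 19 had a promoter in the table. TGTGGT stood in 3 of these 19 (Sfmbt2, Lsmem1 and Spp1), CCGGAAG in 3 (Dusp27, Sfmbt2 and Spp1) and AAGGTCA in 0. Among 14935 promoters of measured genes, cut to the same length, the shares were 11.7%, 9.62% and 3.39%. The strings do not overlap each other in the windows shown, and a match describes letters, not a binding site.

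The rule's need for a Runx3 UMI favours deep barcodes. The proprioceptors' median was 39748 UMIs and 7388 genes in the Penk fl/WT library and 28081 UMIs and 6437 genes in the Penk fl/fl library, against 21113 and 18273 UMIs over all 5907 and 4102 barcodes with at least 5000 UMIs. Barcodes that met the Pvalb level had a median of 24193 and 18346 UMIs before Runx3 was required, and 38602 and 27246 after. Summed over cells, they held 33911456 and 16743003 UMIs. The libraries share 4723 droplet barcodes, and 207 (40.8%) and 155 (49.8%) of the proprioceptors sat in such droplets. In 12 droplets both libraries held a proprioceptor. Doublets were not removed. Satellite glia and Schwann markers (13 genes) summed to at least 20 per 10000 in 193 (38.1%) and 120 (38.6%) of the proprioceptors. T cell markers were nearly lacking, with 9 and 3 UMIs over 5 genes and Cd3e, Cd3g and Foxp3 at 0 in both libraries. Below, values joined by "and" are for the Penk fl/WT and the Penk fl/fl library, in that order, and a level is the summed UMIs of a gene per 1000000 UMIs of the same cells (CPM). Levels of different genes are not compared, since probe number and efficiency differ.

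Markers that the rule did not use were present as the label calls for. Etv1, an ETS transcription factor needed for proprioceptor connections, stood at 847 and 849 CPM, with a lowest value of 0, a median of 8.17 and a highest value of 20.1 per 10000 UMIs over the 507 cells and a lowest value of 0, a median of 8.30 and a highest value of 23.4 over the 311 cells. Whrn, which encodes the scaffold protein whirlin, stood at 261 and 247 CPM, with a lowest value of 0, a median of 2.73 and a highest value of 9.65 per 10000 and a lowest value of 0, a median of 2.46 and a highest value of 9.20. Spp1, which encodes osteopontin, stood at 743 and 723 CPM, with a lowest value of 0, a median of 4.81 and a highest value of 34.4 per 10000 and a lowest value of 0, a median of 4.48 and a highest value of 30.6. So all 3 genes were present in the typical cell, and some cells of each library had none. Ntrk3 stood at 356 and 372 CPM. The rule genes were at 2163 and 2234 CPM for Pvalb and 116 and 122 CPM for Runx3. The 6 markers summed to 4486 and 4546 CPM, and to 813 and 812 CPM in the A-beta gate described next.

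Other gates served as a scale. All were set after values were seen. The A-delta and A-beta gates drew on barcodes with at least 5000 UMIs that met the same exclusions. These barcodes had Pvalb under 10, Nefh at least 10 and Calca under 5 per 10000. The A-delta gate (222 and 133 cells) needed Ntrk2 at 5 or more and above Ntrk3. The A-beta gate (739 and 515 cells) took the remaining cells with Ret or Ntrk3 at 2 or more and Scn10a under 5. Another gate took 360 and 343 cells with at least 5000 UMIs and Mrgprd at 10 or more, and had no other condition. Mrgprd is a receptor gene of unmyelinated skin afferents. Whrn was at 10.1 and 8.09 CPM in the A-beta gate, 7.64 and 5.90 CPM in the A-delta gate and 1.40 and 2.10 CPM in the Mrgprd gate. Ntrk3 was at 397 and 407 CPM in the A-beta gate. Ret, the GDNF-family receptor used by many touch neurons, was 53.2 and 46.0 CPM in proprioceptors against 405 and 399.97 CPM in the A-beta gate. Because Ret or Ntrk3 admitted cells to that gate, its levels of both genes follow in part from the choice of cells.

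**Figure D1:**
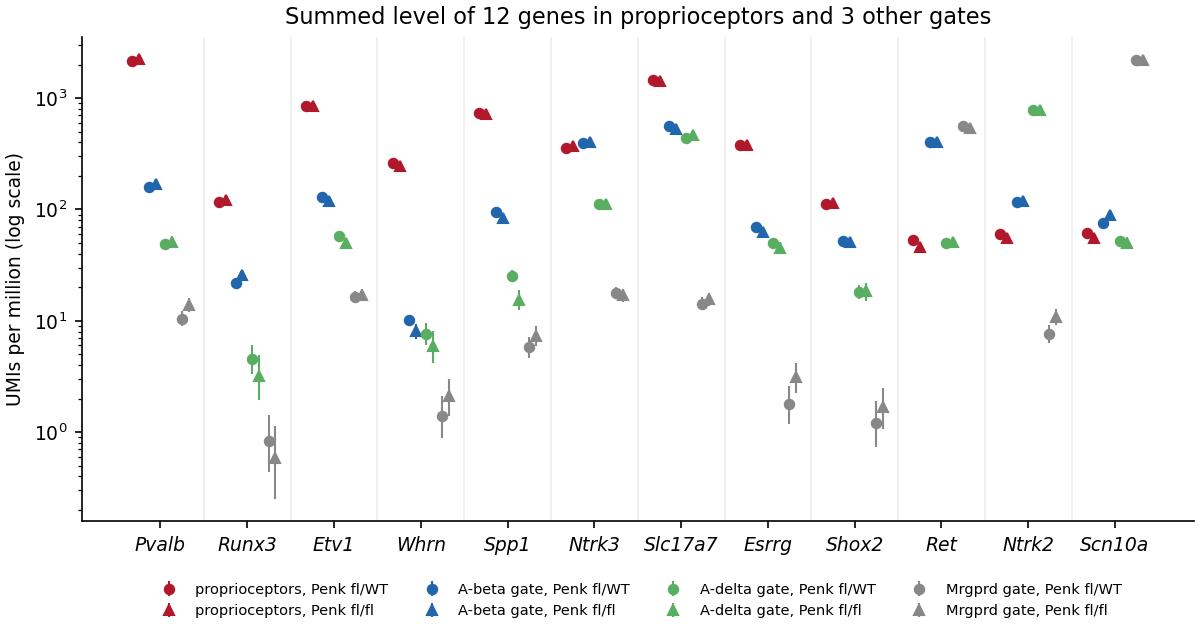
Level of 12 genes (CPM, log axis) summed over the cells of each gate, with exact Poisson 95% intervals. Circles are the Penk fl/WT and triangles the Penk fl/fl library. Etv1, Whrn and Spp1 are highest in the proprioceptors in both libraries, Ntrk3 is as high in the A-beta gate, and Ntrk2, Ret and Scn10a are highest in other gates. Ret and Ntrk3 helped define the A-beta gate, and Ntrk2 the A-delta gate.

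Few cells lay near the Pvalb threshold. With all other conditions met, 40 and 24 barcodes had Pvalb between 8 and 10 per 10000, and 36 and 15 between 10 and 12. The cells just outside had a median Etv1 of 4.40 and 3.56 and a median Whrn of 0.866 and 0.229 per 10000. Those just inside had 4.48 and 4.63 for Etv1 and 1.34 and 1.24 for Whrn. Cells above 12 had 8.38 and 8.40 for Etv1 and 2.79 and 2.53 for Whrn. A further 151 and 75 barcodes met the Pvalb level and the exclusions but had no Runx3 UMI, and their median depth was 7902 and 6958 UMIs. Of the proprioceptors, 107 and 77 rested on a single Runx3 UMI.

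Against all other barcodes of at least 5000 UMIs, 672 of 10663 genes (6.30%) were at least 2-fold higher in proprioceptors in both libraries, and 1064 (9.98%) at least 2-fold lower. Genes entered with at least 200 UMIs over the proprioceptors of both libraries, so a gene nearly lacking from them drops out. The 20 highest, ranked by the smaller of the libraries' ratios, were Chad, Pln, Dusp27, Inhbb, Irx3, Bpifb1, Ybx2, Nxph1, Sfmbt2, Vstm2b, Esrrb, Lmcd1, Lancl3, Whrn, Lsmem1, Fam163a, Smpx, Ccbe1, Olfm4 and Spp1. Chad, which encodes the cartilage matrix protein chondroadherin, stood at 14.7 and 10.0 CPM against 0.391 and 0.300 CPM, or 37.7 and 33.5-fold. Pln, the phospholamban gene that restrains the sarcoplasmic calcium pump, was 96.1 and 106 CPM against 4.11 and 4.21 CPM. Smpx, the gene of a small muscle protein also linked to hearing, was 31.7 and 34.5 CPM against 2.15 and 1.957 CPM. Lmcd1, a LIM-domain gene expressed in heart and skeletal muscle, was 47.1 and 47.1 CPM against 2.71 and 2.38 CPM. Inhbb, which encodes the activin B subunit, was 79.2 and 88.3 CPM against 3.54 and 2.65 CPM. Spp1 and Whrn were in the same list at 14.2 and 17.4-fold and 16.7 and 18.1-fold.

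The 10 lowest were Ctxn3, Dnase1l3, Scn10a, Gna14, Scn11a, Tmem45b, Syt5, Mal2, Camk2a and Rasgrp1. Scn10a encodes the tetrodotoxin-resistant sodium channel of nociceptors. It was 61.2 and 55.3 CPM in proprioceptors, 922 and 1020.5 CPM in the other deep barcodes and 2206 and 2194 CPM in the Mrgprd gate. Scn11a, a second nociceptor sodium channel gene, was 25.04 and 22.9 CPM against 361 and 424 CPM. In the Penk fl/fl library 1 cell gave 27.6% of the proprioceptors' Scn10a UMIs and 25.1% of their Scn11a UMIs. The 7 peptidergic nociceptor markers summed to 238 and 244 CPM in proprioceptors, and to 2443 and 2765 CPM in the other deep barcodes.

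Against the A-beta gate the contrast was narrower. There, 375 genes (3.52%) were at least 2-fold higher in proprioceptors in both libraries and 427 (4.00%) at least 2-fold lower. Against the A-delta gate the counts were 711 (6.67%) and 756 (7.09%). The median ratio over all 10663 genes was 0.911 and 0.903 against the other deep barcodes, 0.960 and 0.941 against the A-beta gate, and 0.946 and 0.970 against the A-delta gate. The counts for gene groups below are given against these shares, with the other deep barcodes first.

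Several transcription factors were higher in proprioceptors. Of 28 sensory neuron factors, 27 were measured and 22 could be counted, and 5 were at least 2-fold higher than in the other deep barcodes and 8 at least 2-fold lower. The same 5, Etv1, Shox2, Esrrg, Esrrb and Cux2, were also at least 2-fold higher than in the A-beta gate and than in the A-delta gate. Esrrg encodes the estrogen-related receptor gamma, a nuclear receptor that drives genes of oxidative metabolism. It was 377 and 377 CPM in proprioceptors, 68.9 and 62.9 CPM in the A-beta gate and 50.1 and 45.3 CPM in the A-delta gate. Its relative Esrrb was 26.8 and 26.2 CPM against 1.86 and 1.53 CPM in the A-beta gate. Shox2, a homeobox gene that takes part in touch neuron development, was 112 and 114 CPM against 51.7 and 50.7 CPM. Cux2, a cut-like homeobox gene, was 111 and 98.6 CPM against 13.8 and 10.7 CPM. The lower factors against the other deep barcodes were Runx1, Etv5, Isl2, Pou4f1, Pou4f2, Klf7, Prdm12 and Zeb2. Runx1, the factor of nociceptor specification, was 30.3 and 27.5 CPM against 259.5 and 196 CPM in the Mrgprd gate. Isl1, the homeobox gene of all sensory neurons, was 174 and 177 CPM against 126 and 132 CPM, whereas its relative Isl2 was 55.4 and 56.6 CPM against 187 and 192 CPM. Hoxc8, which sets position along the body axis and was chosen after its values were seen, was 12.1 and 15.9 CPM against 1.55 and 1.58 CPM in the A-beta gate, with a UMI in 17.2% and 17.0% of proprioceptors. Levels of other Hox genes were looked at too and are not given here.

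Trophic receptor genes were mostly lower than in the other deep barcodes. Of 13 neurotrophin and GDNF-family receptor genes, 9 could be counted, and Ntrk3 was the 1 at least 2-fold higher than in the other deep barcodes. At least 2-fold lower were 7, among them Ntrk2, Ngfr, Ret, Gfra1, Gfra2 and Gfra3. Against the A-beta gate, which Ret and Ntrk3 helped define, the count was 0 higher and 5 lower, among them Ngfr, Ret, Gfra1 and Gfra2. Ntrk2, the receptor gene for brain-derived neurotrophic factor, was 60.5 and 55.5 CPM in proprioceptors and 781 and 777 CPM in the A-delta gate that it defined.

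Sodium channel genes differed in kind. Of 11 countable sodium channel genes, 3 were at least 2-fold higher than in the other deep barcodes, Scn1a and Scn8a among them, and Scn7a, Scn9a, Scn10a, Scn11a, Scn2b and Scn3b at least 2-fold lower. Scn1a encodes Nav1.1, whose loss in sensory neurons is known to impair proprioception in mice, and stood at 377 and 391 CPM. It was 352 and 357 CPM in the A-beta gate, so it did not set proprioceptors apart from them. Scn9a, which encodes the Nav1.7 channel, was 61.5 and 54.5 CPM against 276 and 266 CPM in the A-beta gate and 544 and 547 CPM in the Mrgprd gate.

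Of 21 countable potassium and HCN channel genes, 5 were at least 2-fold higher than in the other deep barcodes and 7 lower, with Kcna2, Kcnc1, Kcns1 and Hcn2 among the higher ones. Kcnc1 encodes Kv3.1, a channel that repolarizes fast-spiking neurons. It was 381 and 334 CPM against 61.1 and 58.2 CPM in the A-beta gate and 157 and 148 CPM in the A-delta gate. Hcn2, a pacemaker channel gene opened by hyperpolarization, was 1008 and 962 CPM against 479 and 456 CPM in the A-beta gate. The related Hcn4 was 44.7 and 44.3 CPM against 12.3 and 12.9 CPM in the A-beta gate, but 45.0 and 39.3 CPM in the A-delta gate. Kcna1 was lower than in the A-beta gate, at 528 and 484 CPM against 773 and 752 CPM. Against the A-beta gate, 3 of these 21 genes were at least 2-fold higher (Kcnc1, Hcn2 and Hcn4) and 4 lower.

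More calcium channel genes were lower than higher. Of 13 countable genes, 2 were at least 2-fold higher than in the other deep barcodes and 6 lower. Cacna1h, the T-type channel gene of D-hair touch neurons, was 5.57 and 4.48 CPM in proprioceptors and 349.6 and 358 CPM in the A-delta gate. Cacna2d1, the accessory subunit gene that gabapentin binds, was 31.5 and 29.3 CPM against 424 and 396 CPM in the Mrgprd gate. The higher genes were Cacng2 and Cacng5, which encode partners of AMPA receptors.

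Mechanically gated and acid-sensing channel genes were 2 higher and 2 lower of 9. Piezo2, the main mechanically gated channel of touch and proprioception, was 186 and 179.6 CPM in proprioceptors, below 283 and 275 CPM in the A-beta gate and 501 and 521 CPM in the A-delta gate. It had a UMI in 94.7% and 92.0% of proprioceptors. Asic1, a proton-gated sodium channel gene, was 356 and 376 CPM against 84.2 and 93.4 CPM in the A-beta gate and 16.3 and 12.8 CPM in the A-delta gate. Its relative Asic2 was lower, at 44.7 and 42.3 CPM against 231 and 233 CPM in the A-delta gate.

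**Figure D2:**
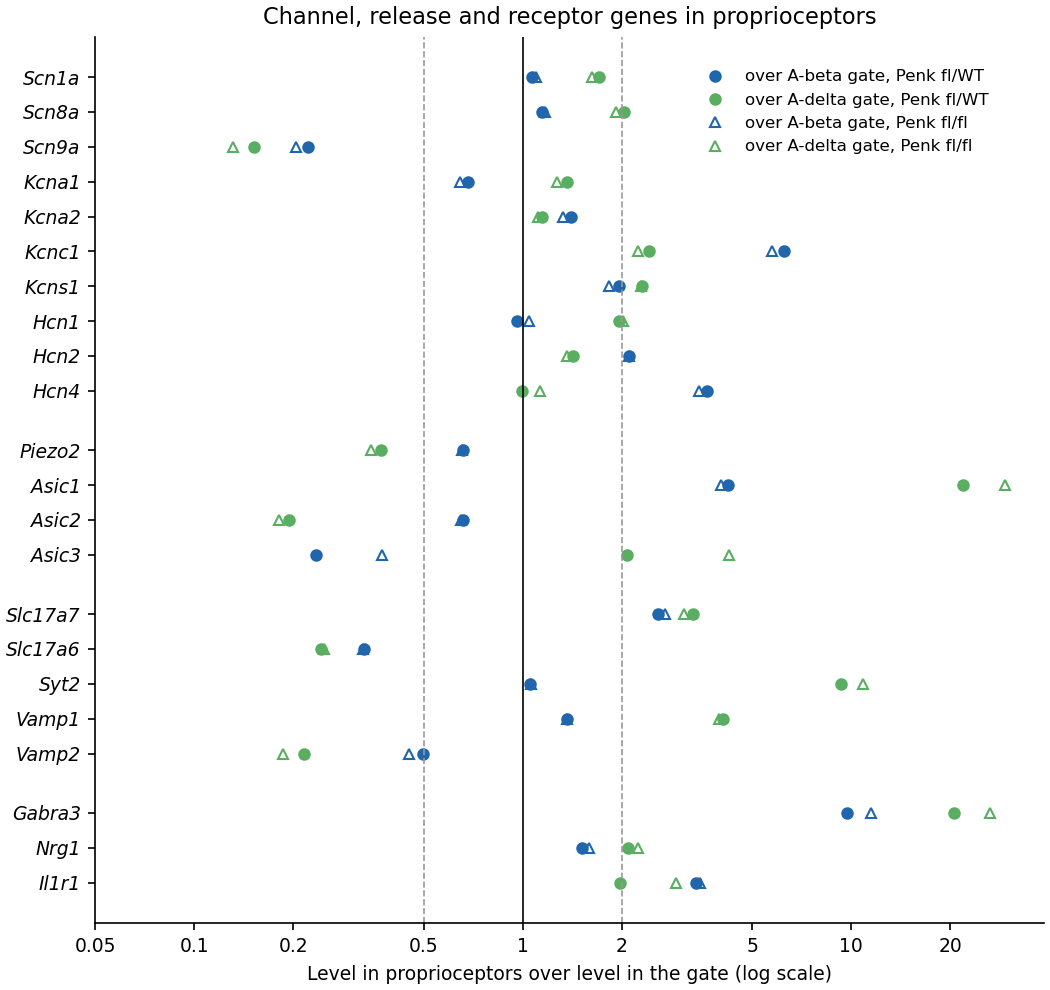
Ratio of the level in proprioceptors to the level in the A-beta gate (blue) and the A-delta gate (green) on a log axis, for 22 channel, release and receptor genes. Filled circles are the Penk fl/WT and open triangles the Penk fl/fl library, and dashed lines mark 2-fold. Kcnc1, Asic1, Slc17a7 and Gabra3 lie right of 2-fold against both gates in both libraries, and Scn9a and Slc17a6 lie left of 0.5.

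Genes of glutamate release also ran in both directions. Of 18 countable genes, 7 were at least 2-fold higher than in the other deep barcodes and 6 lower. Slc17a7, the vesicular glutamate transporter 1 gene, was 1444 and 1439 CPM against 558 and 532 CPM in the A-beta gate. Slc17a6, which encodes transporter 2, was 108 and 114 CPM against 327 and 349 CPM. Among calcium sensors of release, Syt2 was 487 and 496 CPM in proprioceptors, close to 463 and 467 CPM in the A-beta gate and above 52.3 and 45.8 CPM in the A-delta gate. Among the vesicle SNARE genes, Vamp1 was 2033 and 2075 CPM and Vamp2 99.0 and 92.7 CPM, against 500.1 and 523 CPM and 459 and 496 CPM in the A-delta gate. Against the A-beta gate, Slc17a7 was the 1 gene of 18 at least 2-fold higher, and Slc17a6, Cplx2 and Vamp2 were lower.

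Receptors for central and immune signals were mixed. Of 10 countable GABA receptor genes, Gabra3, Gabrb2 and Gabrg1 were at least 2-fold higher than in the other deep barcodes and 1 was lower. Gabra3, an alpha subunit gene, was 35.2 and 37.9 CPM against 3.63 and 3.31 CPM in the A-beta gate. Of 12 countable glutamate receptor genes, Gria2 and Grik2 were higher and Grik1, Grik4 and Grm7 lower than in the other deep barcodes. Of 10 countable cytokine receptor genes tied to psoriasis, Il1r1 was higher and Il10rb, Tnfrsf1a, Il6st, Osmr and Ifnar1 were lower. Il1r1, the interleukin 1 receptor gene, was 28.5 and 30.8 CPM against 8.46 and 8.91 CPM in the A-beta gate and 0.764 and 0.942 CPM in the Mrgprd gate. The interleukin 17 receptor gene Il17ra was 0.826 and 0.597 CPM, and Tlr7, which encodes the receptor that imiquimod engages, was 0.442 and 0.538 CPM.

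Several oxidative metabolism genes were higher in proprioceptors. Of 24 countable genes, 8 were at least 2-fold higher than in the other deep barcodes and 0 lower, with a median ratio of 1.78 and 1.78. The 8 were Ppargc1a, Ppargc1b, Esrra, Esrrg, Ckb, Ckmt1, Ldhb and Mdh1. Ckmt1, the mitochondrial creatine kinase gene, was 1148 and 1165 CPM against 318 and 290.0 CPM. Ppargc1a, the coactivator of mitochondrial biogenesis, was 58.2 and 52.8 CPM against 16.6 and 14.2 CPM. Against the A-beta gate, Esrra and Esrrg alone of the 24 passed 2-fold, and the median ratio was 1.46 and 1.48. Against the A-delta gate, Ppargc1a, Esrrg and Ckmt1 were higher and Cox7a1 lower, with a median of 1.24 and 1.21.

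Of 12 countable cytoskeleton genes, Nefm, Nefh and Ina were at least 2-fold higher than in the other deep barcodes and Prph lower, and against the A-beta gate Ina alone passed 2-fold. Nefh, the heavy neurofilament gene, was 7579.9 and 7336 CPM against 5748 and 5301 CPM in the A-beta gate and 2056 and 2132 CPM in the A-delta gate. Nefl and Nefm lay below the A-beta gate, with Nefl at 8583 and 8972 CPM against 10534 and 10385 CPM and Nefm at 5394 and 5739 CPM against 6207 and 6090.0 CPM. Prph, the peripherin gene of small neurons, was 793 and 830.4 CPM against 3466 and 3399 CPM in the Mrgprd gate. Ina, which encodes alpha-internexin, was 185 and 194 CPM against 9.29 and 10.7 CPM in the A-beta gate. Of the 20 countable guidance genes, 5 were at least 2-fold higher than in the other deep barcodes and 5 lower. Both neuropilin genes were among the lower ones, with Nrp1 at 8.91 and 9.50 CPM against 71.1 and 88.0 CPM in the A-beta gate. The netrin receptor gene Unc5b was 19.4 and 20.9 CPM against 2.30 and 2.09 CPM. Among 10 countable genes of nerve-muscle signals, Nrg1 and Spp1 were at least 2-fold higher than in the other deep barcodes and Bdnf, Igf1r and Chrna7 lower. Nrg1, which encodes the neuregulin that directs myelination and spindle formation, was 466 and 464 CPM in proprioceptors.

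Genes of axon injury and of the interferon response differed with the gate they were set against. Of 10 countable axon injury genes, 0 were at least 2-fold higher than in the other deep barcodes and Gap43, Sox11, Flrt3 and Hspb1 were lower. Adcyap1 was at least 2-fold higher than in the A-beta gate and Jun than in the A-delta gate. Of 29 countable interferon response genes, 0 were higher and 9 lower than in the other deep barcodes, while 7 were higher and 0 lower than in the A-delta gate (Ifit1, Ifit2, Ifit3, Oasl1, Oasl2, Ifi44 and Gbp3). Atf3, the injury-induced transcription factor gene, was 12.7 and 12.2 CPM. Among opioid receptor genes, Oprm1, which encodes the mu receptor, was 17.5 and 19.1 CPM in proprioceptors and 215 and 241 CPM in the other deep barcodes, and 1 cell gave 37.2% of its proprioceptor UMIs in the Penk fl/fl library. The nociceptin receptor gene Oprl1 was higher than in them, at 28.7 and 33.6 CPM against 13.4 and 12.3 CPM. Oprd1, the delta receptor gene, was 2.92 and 1.73 CPM against 16.7 and 20.1 CPM in the A-beta gate, and Oprk1, the kappa receptor gene, 0.0590 and 0.239 CPM against 4.55 and 4.63 CPM.

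The proprioceptors also differed among themselves. In counts thinned to 5000 UMIs per cell, the Fano factor (variance over mean) had a median of 1.05 in both libraries over 4299 genes. The 15 highest genes included Apoe, Apod, Nefl, Nefh, Nefm, Vim, Mbp, Pmp22, Map1b, Fabp7, Drp2, mt-Co2, Gsn and Dcn. Apoe, which satellite glia carry at high level, had a Fano factor of 32.4 and 32.0. Glial, myelin or connective tissue genes made up most of the list, and the summed 13 glial markers ran from a median of 9.56 and 8.13 per 10000 to a highest cell of 334 and 304. The part of attached glia or free RNA in them was not tested. The neurofilament genes stood apart from these, with Fano factors of 14.1 and 14.5 for Nefl, 9.20 and 8.21 for Nefh and 8.31 and 8.10 for Nefm.

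Genes that mouse studies have used to sort proprioceptors into classes gave shares whose intervals overlapped between the libraries. Pou4f3, a POU factor gene reported in tendon organ afferents, was called present with at least 2 UMIs and 0.5 per 10000 in 35 (6.90%, 4.86 to 9.47) and 22 (7.07%, 4.49 to 10.5) cells. Heg1, a transmembrane protein gene reported in spindle afferents, was present in 294 (58.0%, 53.6 to 62.3) and 165 (53.1%, 47.3 to 58.7) cells. In the Mrgprd gate, which had medians of 41915 and 32066 UMIs, the same cut found Pou4f3 in 0.278% and 0% and Heg1 in 0.278% and 0% of cells. Both genes were present in 4 cells and 1 cell. These made up 11.4% and 4.55% of the Pou4f3 cells, and 1.36% and 0.606% of the Heg1 cells. The Pou4f3 cells were deeper than the other proprioceptors, at a median of 95708 and 59774 against 38229 and 25388 UMIs. A further 182 and 125 cells had neither, with a median of 25916 and 15206 UMIs. With 20000 UMIs drawn from each cell, leaving out 159 and 132 shallower cells, 19.8% and 18.99% had a Pou4f3 UMI and 69.3% and 67.6% a Heg1 UMI, against 23.3% and 20.6% and 79.1% and 72.3% without thinning.

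Genes followed this division. Chad was 62.1 and 68.0 CPM in the Pou4f3 cells and 9.14 and 3.90 CPM in the rest, and 0.763 and 1.20 CPM in the Heg1 cells. So Chad, the gene most enriched in proprioceptors as a whole, came from few of them. Timp2, a metalloproteinase inhibitor gene, was 899 and 1051 CPM in the Pou4f3 cells and 168 and 158 CPM in the Heg1 cells. Asic3, the acid-sensing channel gene of muscle afferents, was 135 and 345 CPM and 13.5 and 13.3 CPM in the same cells. Spp1 and Whrn ran the other way. Spp1 was 370.0 and 295 CPM in the Pou4f3 cells and 988 and 981 CPM in the Heg1 cells, and Whrn was 145 and 142 CPM and 315 and 289 CPM. Pvalb itself was 2130.0 and 2239 CPM and 2274 and 2351 CPM, so the rule gene separated the subsets little.

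Across cells (507 and 311, which share a library and differ in depth), log-scaled values of Heg1 and Timp2 had a correlation of -0.65 and -0.63. Thinned to 5000 UMIs it was -0.40 and -0.43. Heg1 ran with Klhdc8a at 0.60 and 0.55, with Spp1 at 0.50 and 0.51 and with Esrrg at 0.57 and 0.47. Thinned, these were 0.35 and 0.25, 0.33 and 0.35 and 0.28 and 0.13. Heg1 ran against Cnr1, the cannabinoid receptor gene, at -0.56 and -0.48, or -0.29 and -0.27 thinned. Pou4f3 ran with Cabp7, a calcium-binding protein gene, at 0.55 and 0.53 and with Ntm, a cell adhesion gene, at 0.58 and 0.44. Thinned, these were 0.27 and 0.31 and 0.29 and 0.12. The genes named were the nearest and farthest of 9014 by the smaller value of the libraries or from the fixed lists. Depth had a correlation of -0.03 and 0.02 with Heg1 and of 0.13 and 0.11 with Pou4f3.

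**Figure D3:**
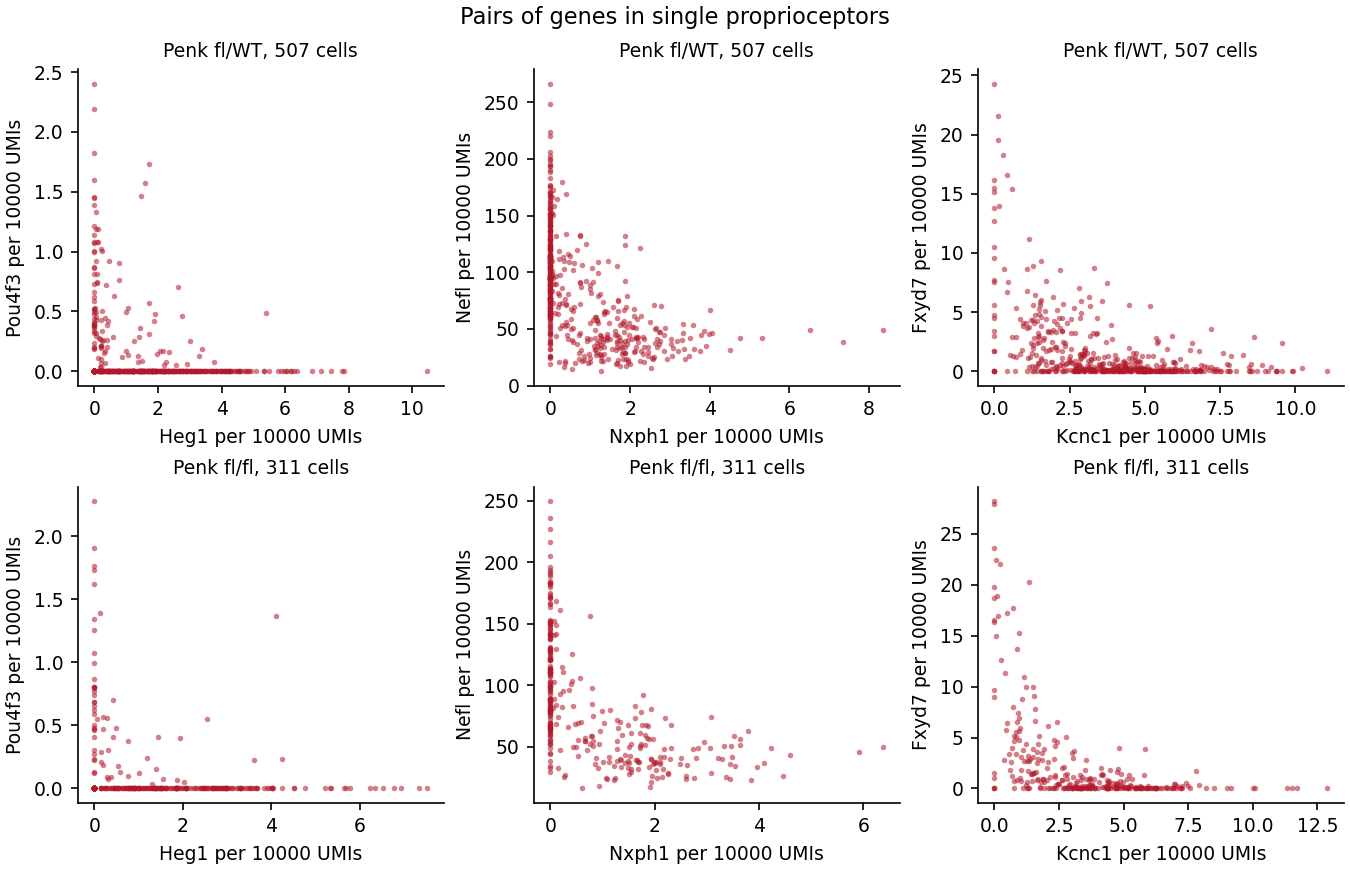
Each point is 1 proprioceptor, with values per 10000 UMIs on both axes, in the Penk fl/WT (507 cells, top) and the Penk fl/fl library (311 cells, bottom). Cells with much Pou4f3 have little Heg1, cells with Nxph1 lie low in Nefl, and cells with much Fxyd7 lie low in Kcnc1, in both libraries.

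A second division overlapped the first in part. Nxph1, which encodes a neurexin ligand, was present in 194 (38.3%, 34.0 to 42.7) and 126 (40.5%, 35.0 to 46.2) cells and in 0% and 0% of the Mrgprd gate. Calb2, the calretinin gene, was present in 57 (11.2%, 8.63 to 14.3) and 31 (9.97%, 6.87 to 13.8) cells and in 0.556% and 0.875% of the Mrgprd gate. The cells with both were 4 and 1, or 7.02% and 3.23% of the Calb2 cells and 2.06% and 0.794% of the Nxph1 cells. Most Calb2 cells had Heg1, at 51 of 57 and 21 of 31, and so did 61.3% and 62.7% of the Nxph1 cells. Nxph1 and Heg1 had a correlation of 0.04 and 0.00 across cells, while Nxph1 and Pou4f3 had -0.28 and -0.25.

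Neurofilament level went with this second division. Nefl, the light neurofilament gene, was 4695 and 4984 CPM in the Nxph1 cells and 13553 and 15568 CPM in the Calb2 cells. Crtac1, an acidic cartilage protein gene also used to sort these cells, ran with Nxph1 at 0.47 and 0.55 and against Heg1 at -0.23 and -0.19. It was present in 199 (39.3%) and 132 (42.4%) proprioceptors but also in 25.6% and 25.9% of the Mrgprd gate. Across cells Nxph1 and Nefl had a correlation of -0.62 and -0.68, or -0.44 and -0.46 after thinning. Nefm and Nefh had -0.56 and -0.63 and -0.55 and -0.61 with Nxph1. Kcna1, a Kv1 channel gene, was 311 and 293 CPM in the Nxph1 cells and 752 and 709.6 CPM in the Calb2 cells. Kcnc4 was the reverse, at 272 and 289.8 CPM and 41.3 and 28.4 CPM. Scg2, a granin gene of dense-core vesicles, was 432 and 402 CPM in the Nxph1 cells and 111 and 103 CPM in the rest, with a correlation of 0.66 and 0.68 to Nxph1, or 0.34 and 0.42 thinned. Cbln2, which encodes a synapse organizer of the cerebellin family, was 365 and 331 CPM and 55.8 and 71.0 CPM in the same groups. Pln was 159.8 and 178 CPM in the Nxph1 cells and 59.7 and 55.2 CPM in the rest. The 13 glial genes summed to 6165 and 4519 CPM in the Nxph1 cells and 3203 and 2574 CPM in the rest, and their part in the division was not tested.

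Another set of genes centred on Fxyd7, a regulator of the sodium pump. Fxyd7 was present in 192 (37.9%) and 123 (39.5%) proprioceptors, but also in 11.1% and 6.997% of the Mrgprd gate. The A-beta gate held more Fxyd7 than the proprioceptors, at 983 and 1017 CPM against 167 and 304 CPM. Kcnc1 had a correlation of -0.61 and -0.71 with Fxyd7 across proprioceptors, or -0.35 and -0.49 after thinning. In the Fxyd7 cells it was 241 and 175 CPM against 464 and 447 CPM in the rest. Lxn ran the other way, at 248 and 397 CPM against 66.8 and 60.2 CPM. In the A-beta gate Lxn was also higher than in proprioceptors, at 314 and 351 CPM against 134 and 201 CPM, and Kcnc1 was lower. The rule gene Pvalb was lower in the Fxyd7 cells, at 1785 and 1910.4 CPM against 2385 and 2466 CPM. The same cells held more of the 13 glial genes, at 6914 and 4475 CPM against 2729 and 2585 CPM, and more Scn10a, at 90.4 and 92.1 CPM against 44.0 and 29.0 CPM, whose part was not tested.

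**Figure D4:**
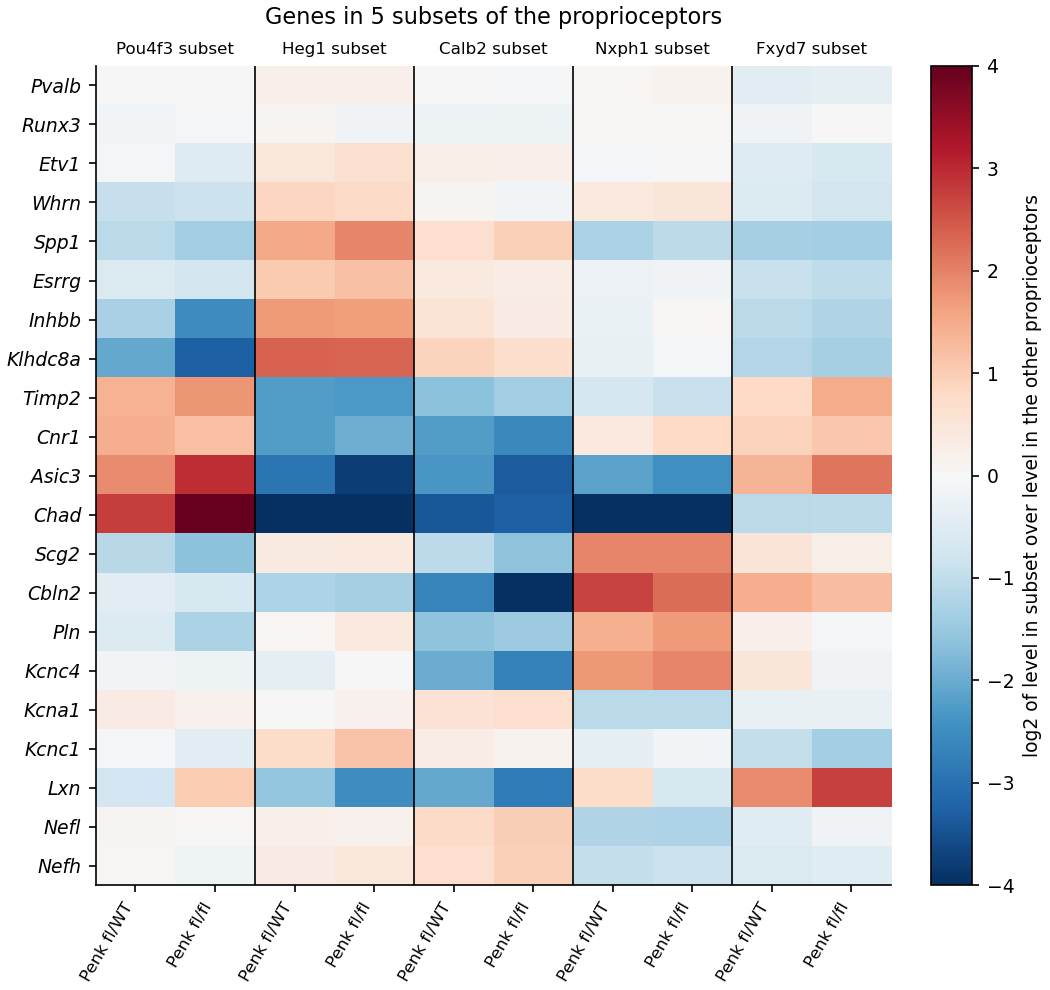
Colour gives log2 of a gene's level in the cells of a subset over its level in the other proprioceptors, in each library, with colours cut at 4 in either direction. Asic3 and Timp2 are high in the Pou4f3 and Fxyd7 subsets and low in the Heg1 subset, and Nefl and Kcna1 are low in the Nxph1 subset and high in the Calb2 subset, in both libraries.

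The genotypes differ in the floxed alleles of Penk, the enkephalin precursor gene, with a Cre meant for regulatory T cells. Their comparison asks whether this is accompanied by a difference in these neurons. Proprioceptors made up 8.58% (7.88 to 9.33) of the deep barcodes in the Penk fl/WT and 7.58% (6.79 to 8.43) in the Penk fl/fl library. The intervals overlap, and the ratio of the shares was 0.883 (0.771 to 1.01). With at least 3 Runx3 UMIs required, that ratio was 0.781 (0.654 to 0.934). Penk itself had 8 UMIs in 8 proprioceptors of the Penk fl/WT library (0.236 CPM, 0.102 to 0.465) and 0 in the Penk fl/fl library. A set floor of 3 UMIs would stand at 0.179 CPM there. The interval of the ratio reached 1.19, so a difference in proprioceptors was not detectable at this depth, while the other deep barcodes held 489 and 2 Penk UMIs. The A-beta gate held 36 and 0, so Penk counts differed in barcodes of neurons also. The cause was not tested. Where the Penk probes lie relative to the floxed part was not given in the sources used here.

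Most genes were close between libraries. Of 10670 genes with at least 200 UMIs over the proprioceptors, 521 (4.88%) had a ratio of 0.8 or less in the Penk fl/fl over the Penk fl/WT library. By the same step in the other direction 166 (1.56%) were higher, and 93.6% lay between. The median ratio was 0.992. Without cells in shared droplets the counts were 257 lower and 321 higher. Of the 6 proprioceptor markers 0 passed the step, and Pvalb had a ratio of 1.03 (1.02 to 1.05), Etv1 1.00 (0.983 to 1.02) and Whrn 0.944 (0.909 to 0.979). Of 18 glutamate release, 13 calcium channel, 10 GABA receptor, 12 cytoskeleton and 24 oxidative metabolism genes, 0 passed the step. Of 18 genes used to sort proprioceptor classes, Calb2, Fxyd7 and Pcdh17 were past the step above 1 and Chad, Calb1, Cdh13 and Itga2 below it. With 20000 UMIs drawn from each cell, 17.2% and 12.3% of cells had a Calb2 UMI, opposite in direction to its summed ratio. The shares were 55.5% and 59.8% for Fxyd7, 8.62% and 8.38% for Chad and 22.1% and 19.6% for Calb1. For Chad, 1 cell gave 15.6% and 15.5% of the UMIs. Of 10 axon injury genes, Stmn4 and Hspb1 were past it above 1. Scn2b alone of 11 sodium channel genes and Kcnq5 alone of 21 potassium and HCN channel genes passed the step.

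**Figure D5:**
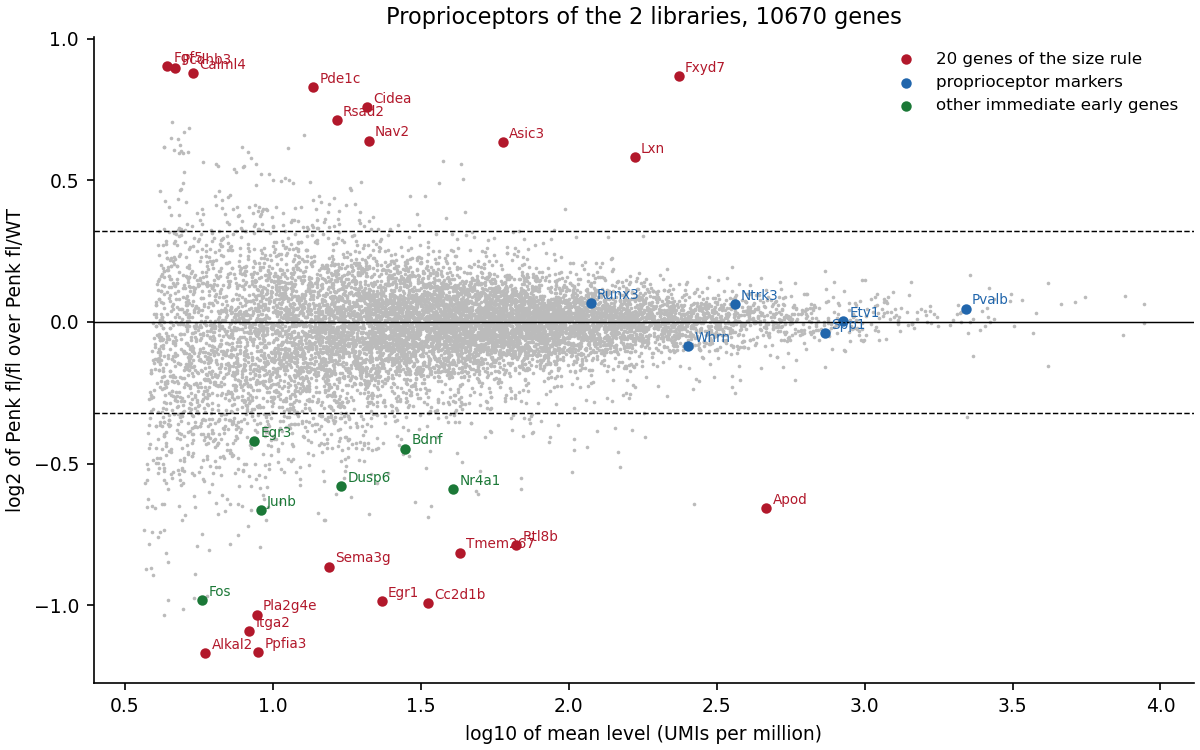
Log2 ratio of the level in proprioceptors of the Penk fl/fl over the Penk fl/WT library against log10 of the mean level, for 10670 genes. Dashed lines mark a ratio of 0.8 and its inverse. The blue proprioceptor markers lie near 0, while Fxyd7, Asic3 and Lxn lie above the step and Egr1, Fos and Cc2d1b below it.

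The 10 genes whose intervals lay furthest above 1 were Fxyd7, Pde1c, Cidea, Asic3, Lxn, Calml4, Rsad2, Pcdhb3, Fgf5 and Nav2. Fxyd7 stood at 167 and 304 CPM, a ratio of 1.82 (1.76 to 1.89). That ratio was 1.32 with thinned cells, 1.43 with each cell weighted equally and 2.69 without cells in shared droplets. The median of Fxyd7 over cells was 0.349 and 0.409 per 10000, and its 95th percentile 7.34 and 14.3, so the libraries differed in the cells with most of it. In the Heg1 cells Fxyd7 was 57.9 and 77.2 CPM and in the others 344 and 716 CPM. It was 983 and 1017 CPM in the A-beta gate and 97.7 and 78.2 CPM in the A-delta gate, so neither was higher by that much in the Penk fl/fl library. Asic3 was 47.0 and 73.0 CPM in proprioceptors and 199.8 and 196 CPM in the A-beta gate. Its ratio in proprioceptors was 1.55 (1.44 to 1.67), or 1.36 with each cell weighted equally and 2.54 at a glial sum under 20 per 10000. With 20000 UMIs drawn from each cell, 29.6% and 27.4% of proprioceptors had an Asic3 UMI, so the higher sum did not come with more cells holding it. One cell gave 6.58% and 9.17% of the Asic3 UMIs. In proprioceptors Lxn, a carboxypeptidase inhibitor gene, had a ratio of 1.496 (1.43 to 1.56). Among the cells, Lxn had a correlation of 0.52 and 0.63 with Fxyd7, and Asic3 of 0.47 and 0.42 with Pou4f3, or 0.41 and 0.45 and 0.21 and 0.16 thinned. Some single cells weighed heavily, since 1 cell gave 18.3% and 21.2% of the Cidea UMIs and 1 cell 14.6% of the Rsad2 UMIs of the Penk fl/fl library. Among proprioceptors with Pvalb of at least 20 per 10000, Pde1c, Lxn and Rsad2 lay on the other side of 1, at 0.754, 0.981 and 0.819. With each cell weighted equally, Pde1c was at 0.919 and Fgf5 at 1.02.

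The 10 genes whose intervals lay furthest below 1 were Ppfia3, Cc2d1b, Egr1, Alkal2, Itga2, Pla2g4e, Rtl8b, Tmem267, Sema3g and Apod. Cc2d1b, an endosomal sorting gene, was 44.7 and 22.5 CPM, a ratio of 0.503 (0.448 to 0.563). The A-beta gate showed 47.3 and 22.9 CPM and the A-delta gate 44.3 and 27.6 CPM. Rtl8b, a gene derived from a retrotransposon, was 84.3 and 48.8 CPM in proprioceptors and 109.8 and 68.7 CPM in the A-beta gate. Tmem267 was 54.7 and 31.1 CPM and 47.1 and 29.3 CPM in the same groups. Ppfia3, an active-zone liprin gene, was 12.3 and 5.49 CPM and 14.6 and 7.58 CPM. So these 4 genes were lower in the Penk fl/fl library in both kinds of neuron, and the gates come from the same 2 libraries. They were lower in the other deep barcodes as well, so the difference was not particular to these neurons. There Cc2d1b was 52.6 and 28.9 CPM, Rtl8b 99.7 and 59.5 CPM, Tmem267 44.1 and 25.1 CPM and Ppfia3 15.7 and 8.05 CPM. Itga2, an integrin gene, was 11.3 and 5.32 CPM in proprioceptors and 2.30 and 1.93 CPM in the A-beta gate. With each cell weighted equally its ratio was 0.896 and that of Alkal2 0.810, in place of 0.469 and 0.444. Without cells in shared droplets they were 0.1996 and 0.267, and Alkal2 was 0.173 at a glial sum under 20 per 10000 and 1.75 with thinned cells.

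Many activity genes were lower in the Penk fl/fl library. Of 20 countable immediate early genes, 0 were past the step above 1 and 10 below it, with a median ratio of 0.801 against 0.992 for all genes. Among all 10670 genes the shares were 1.56% above the step and 4.88% below it. Egr1, an early zinc finger gene, was 31.0 and 15.6 CPM, a ratio of 0.505 (0.439 to 0.579), and 45.2% and 32.5% of cells held a UMI of it. The Egr1 ratio was 0.738 without cells in shared droplets and 0.707 with thinned cells. Fos was 7.67 and 3.88 CPM, a ratio of 0.506 (0.380 to 0.667), and Nr4a1 48.8 and 32.4 CPM, a ratio of 0.665 (0.602 to 0.733). Bdnf, which encodes brain-derived neurotrophic factor, had a ratio of 0.733 (0.652 to 0.823), and Junb, Egr3, Ier2, Dusp5, Dusp6 and Zfp36 made up the 10. Egr1 was 29.1 and 22.0 CPM in the A-beta gate and 34.1 and 20.1 CPM in the other deep barcodes, so the same direction held outside the proprioceptors. Without the cells that share a droplet barcode with the other library, 6 of the 20 genes were below the step, 1 was above it and the median was 0.921.

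Over all 10670 genes, 1.56% were past the step above 1 and 4.88% below it, with a median of 0.992. Of 20 countable glucocorticoid-induced genes, 0 were past the step above 1 and 6 below it, with a median of 0.911. The metallothionein genes were among them, with Mt1 at 169 and 123 CPM, a ratio of 0.727 (0.691 to 0.764), and Mt2 at 82.9 and 55.1 CPM, a ratio of 0.665 (0.617 to 0.717). Without the cells in shared droplets the counts were 2 and 1 and the median 1.02. Of 29 interferon response genes, 5 were past the step above 1 (Rsad2, Oasl1, Irf9, Stat2 and Rtp4) and 0 below it, with a median of 1.00. Irf9, which encodes part of the interferon-induced transcription complex, had a ratio of 1.42 (1.30 to 1.55) and Stat2, its partner, 1.41 (1.28 to 1.55). Among proprioceptors with Pvalb of at least 20 per 10000, 2 of these 29 were past the step above 1 and 1 below it. The opioid receptor gene Oprl1 had a ratio of 1.17 (1.05 to 1.30), and Oprm1 of 1.09 with an interval that held 1.

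Markers of other cells also differed between libraries, in both directions. For scale, 1.56% of all genes were past the step above 1 and 4.88% below it. All 5 countable Schwann genes (Mbp, Prx, Pmp22 and Ncmap among them) were below the step, with a median ratio of 0.693. Of the 7 satellite glia genes Apoe was below it, with a median of 0.833, and of 4 fibroblast genes Col1a1, Dcn and Lum were. Both countable erythroid genes, Hbb-bs and Hba-a2, were past the step above 1, with a median of 1.53, and 1 cell gave 61.8% and 47.5% of the UMIs of the 4 erythroid genes. Calca, a nociceptor neuropeptide gene, and Th were also past it, and in the Penk fl/fl library 1 cell gave 37.2% of the Calca and 66.5% of the Th UMIs. The 13 glial genes summed to 4281 and 3373 CPM in proprioceptors, though the share of cells past 20 per 10000 was alike. With each cell weighted equally, 0 of the 5 Schwann genes passed the step and their median was 0.942. Among proprioceptors with a glial sum under 20 per 10000, 246 genes lay above the step and 269 below it, in place of 166 and 521. There 9 of the 20 immediate early genes lay below the step, with a median of 0.825.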

How the data were processed

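Each deposited matrix holds UMI counts, not normalized, for every gene in every barcode. The authors used a probe-based kit for fixed cells and Cell Ranger on GRCm39, version 7.0 per the labels' protocols and 8.0.1 per the file headers. Probe counts carry no length, so levels were not compared between genes. The submitters' processing notes also name Seurat without a role. The members and gene lists were chosen with earlier results of these data known. UMIs were summed over the chosen cells and scaled to 1000000. Intervals were exact (Poisson for levels, conditional binomial for ratios, Clopper-Pearson for shares), and the ratio of shares used a log-normal interval. All 19059 genes entered, and counts used genes with at least 200 UMIs over the proprioceptors. Named genes were the 20 highest and 10 lowest against the other deep barcodes by the less extreme library, the 10 highest and 10 lowest between libraries by the interval bound nearest 1, the 15 highest Fano factors, and genes of the lists. Correlations used log values of genes with at least 500 UMIs and a UMI in at least 5% of cells. No test was run, since each genotype was 1 library. The ratios were checked on simulated Poisson sums. That is the model the intervals assume, so the check does not cover the spread between cells. Python 3.11.15, numpy 2.4.6, scipy 1.17.1 and pandas 2.3.3 were used. Alternatives changed the depth, Pvalb and Runx3 limits, droplets, thinning, cell weights, scaling and gene minimum. A few genes are counted within their lists but not reported here by name.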

Additional observations from a re-analysis of the deposited data

How the results depend on the processing

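No paired analysis was possible because each genotype was 1 library, and for the same reason no replicate could be left out. The ratio of shares was 0.883, and under the 4 other rules it ran from 0.781 (at least 3 Runx3 UMIs) to 0.927 (Pvalb at least 20 per 10000). At 3 Runx3 UMIs the interval, 0.654 to 0.934, left out 1, but it covers counting error only and not the spread between mice. The proprioceptors' median depth was 39748 and 28081 UMIs, and the part of depth in that share was not tested. The counts of genes past 2-fold against the other deep barcodes kept within 1.5 times under the alternatives tried. The counts of genes past the step of 0.8 or its inverse between libraries, 521 lower and 166 higher, did not. The higher count was 321 without droplets shared by the libraries, 435 with each cell weighted equally, 1280 with cells thinned to 5000 UMIs, 389 at a minimum of 50 UMIs per gene and 21 at a minimum of 1000. The lower count was 257 without shared droplets, 231 with Pvalb at least 20 per 10000, 269 at a glial sum under 20 per 10000 (an alternative chosen after seeing the data), 1441 with thinned cells, 994 at 50 UMIs and 108 at 1000. Thinning and the gene minimum change the UMIs behind each ratio by construction. The cause of the other differences was not tested. Of the 20 genes named between libraries, 16 stayed on their side of 1 in every alternative tried. The exceptions were Pde1c, at 0.754 with Pvalb at least 20 per 10000, 0.919 with equal cell weights and 0.604 thinned, Lxn at 0.981 and Rsad2 at 0.819 with Pvalb at least 20 per 10000, and Alkal2 at 1.75 thinned. Depth limits Penk, and the Runx3 condition drops shallow cells.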
